A study of Homo sapiens with 12 samples.

Results

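Small nucleolar RNAs (snoRNAs), small Cajal body RNAs (scaRNAs) and spliceosomal small nuclear RNAs (snRNAs) were followed across a drug experiment in 2 cancer cell lines. Every row of the array table was taken whose gene name starts with SNORA, SNORD, SCARNA or RNU and a digit. This gave 320 of 34687 rows, of which 174 were SNORD, 102 SNORA, 24 SCARNA and 20 RNU rows. The names alone chose them and no measured value entered the rule, though the rule was set with earlier results of these data known.

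HCT116, a human colon cancer line, and PANC1, a human pancreatic cancer line, were grown in culture with DMSO at 0.05%, with 10 uM ICG-001 or with 10 uM C646, for 12 or 96 h. DMSO is the solvent and served as the control. ICG-001 binds the co-activator CBP and blocks its contact with β-catenin, and C646 inhibits the acetyltransferase activity of both CBP and its relative p300. The 12 combinations of line, treatment and time are the groups. Each has a single value per row, averaged by the authors from 3 arrays for PANC1 ICG-001 12 h and from 2 for the rest, so no difference has a replicate check, an error or a test. Medium and drug were renewed every day by the study's methods.

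Box C/D snoRNAs (the SNORD names) guide 2'-O-methylation of ribosomal RNA, and box H/ACA snoRNAs (the SNORA names) guide pseudouridylation. A few of them, U3 among them, take part in the cleavage of the ribosomal RNA precursor instead. The scaRNAs guide the same modifications on snRNAs in Cajal bodies, and the RNU rows hold the U1, U4, U5, U6 and minor spliceosome RNAs that carry out splicing. Most human snoRNAs are cut from the introns of longer host genes, while U3, U13 and the snRNAs have promoters of their own. The mature forms lack a poly(A) tail and the labelling kit primes on poly(A), so a probe may read a mature RNA, a precursor or an overlapping host transcript. Which of these it read was not tested.

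Values are signal intensities on a linear scale with the background left in, so ratios of dim rows understate their changes. A column's detection limit, at 148.2 to 149.1 in HCT116 and 140.8 to 142.7 in PANC1, was set from its own background values. To be tested, a row had to exceed the limit in 1 or both of the columns set against each other. It counts as changed where these columns differ by 1.5-fold or more. HCT116 and PANC1 were probably normalized separately, so they were set side by side only through ratios and through which rows lay above each column's own limit. In the check of cell identity, 5 of 6 colon epithelial markers (EPCAM, CDH1, CDX2, KRT8 and KRT18) were above the limit in all 6 HCT116 columns and VIL1 was above it in none, and the markers looked up for PANC1 (KRT7, KRT8, KRT18, KRT19 and SOX9 of ductal epithelium, and the mesenchymal VIM) were above it in all 6 PANC1 columns. KRT8 and KRT18 are in both lists.

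The PANC1 DMSO 12 h column stood apart for these RNAs. Its 5 U1 rows read 122.1 to 173.3, against 224.7 to 580.1 in the other PANC1 columns. Its 18S ribosomal RNA row read 141.3, below the limit, against 732.4 to 1702.5 in the others. The PANC1 results at 12 h for the small RNA rows are therefore also given against the DMSO 96 h column, an alternative chosen after these values were seen. By the study's methods the 96 h cultures were also started at a lower density and passaged. Ratios to that column thus mix time, density and passage with the drug.

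Of the 320 rows, 190 exceeded the limit somewhere and 88 did in all 12 columns. By class, 16 of 20 RNU, 17 of 24 SCARNA, 70 of 102 SNORA and 87 of 174 SNORD rows were detected somewhere. The number above the limit in a column was lowest with ICG-001 at 96 h in both lines. In HCT116 it was 150 and 145 at 12 and 96 h for DMSO, 136 and 121 for ICG-001, and 150 and 148 for C646. The PANC1 numbers were 130 and 135 for DMSO, 142 and 124 for ICG-001, and 144 and 148 for C646. The share of all rows above the limit moved less, between 40.7% and 42.1% over the 12 columns.

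A few rows were above the limit throughout a line and nowhere in the other. How many of all rows did the same was not counted. SNORA26, SNORA79, SNORD35A, SCARNA8 and SCARNA22 were above the limit in all 6 HCT116 columns and in no PANC1 column. Some lay near the limits, as SNORA26 did at 159.2 to 197.8 in HCT116 and 131.8 to 138.1 in PANC1. SNORA79, an H/ACA RNA, read 185.7 to 479.0 in HCT116, and its PANC1 values of 115.9 to 127.0 were all under that line's limits. SNORD114-1 and SNORD114-3, box C/D RNAs of the imprinted cluster in the MEG8 gene, showed the reverse. SNORD114-3 read 204.4 to 388.2 in PANC1 and stayed under the limit in HCT116, at 120.9 to 137.3. Of the 15 SNORD114 rows, 5 were above the limit somewhere in PANC1 and 2 in HCT116, and none of the 6 rows of the SNORD115 and SNORD116 families, brain-expressed RNAs of another imprinted region, was above it in either line.

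Across the 8 comparisons of a drug with DMSO, 43 rows changed at least once, namely 19 SNORD, 10 SNORA, 9 RNU and 5 SCARNA rows, and 147 detected rows changed in none. The share of all rows that changed at least once was not counted, so 43 cannot be called many or few. The 9 changed RNU rows were 5 rows of U1, 2 of U6, RNU4-2 and RNU4ATAC. The U1 rows are near-identical copies. RNU1F1 and RNU1G2 are older names of the same gene, RNU1-4, and RNU1A3 is RNU1-1, so these rows count 1 RNA several times.

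ICG-001 at 96 h in HCT116 gave the largest number of changed rows. There 23 of 153 tested small RNA rows were lower, or 15.0%, against 5.68% of all 15393 rows tested, and 8 were higher, or 5.23%, against 5.7% of all rows. Their median log2 ratio was -0.19, where that of all rows was 0.00 (without the filter on dim rows the small RNA median was -0.06, and with normexp background correction -0.40), and 78.4% of them lay below 0 against 49.9% of all rows. The class medians were close, at -0.19 for SNORA, -0.20 for SNORD, -0.19 for SCARNA and -0.18 for RNU rows, but the calls were not split alike. Of 58 SNORA rows 10 were lower and 0 higher, of 69 SNORD rows 10 were lower and 3 higher, of 11 SCARNA rows 2 were lower and 0 higher, and of 15 RNU rows 1 was lower and 5, the U1 copies, were higher. At 12 h in the same line the counts were near the background, with 7 of 155 higher (4.52% against 5.37% of all rows) and 5 lower (3.23% against 4.63%), and the median was -0.05.

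ICG-001 at 96 h in PANC1 lowered 9 of 147 tested rows (6.12% against 4% of all rows), and 5 were higher (3.40% against 4.33%). The median log2 ratio of the small RNA rows was -0.10, with 65.3% below 0 against 50.8% of all rows. At 12 h in PANC1 no row was lower, where 0.38% of all rows were, and 7 of 148 were higher (4.73% against 2.46%). Of these 7 rows, 5 were U1 copies. Against DMSO 96 h none of the 7 passed. There 1 of 151 rows was higher, RNU4ATAC (0.662% against 0.874% of all rows), and 3 were lower, SNORD3D, SNORA12 and SNORD13 (1.99% against 0.625%).

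C646 changed fewer rows at 96 h than ICG-001 did. In HCT116, 2 of 162 rows were higher at 12 h (1.23% against 2.91% of all rows) and 3 were lower (1.85% against 1.72%). At 96 h there 5 of 156 were higher (3.21% against 2.09%) and 2 lower (1.28% against 1.35%). In PANC1 at 12 h, 10 of 154 were higher (6.49% against 4.51%) and 1 was lower (0.649% against 3.04%), with a median of 0.12. Against DMSO 96 h only 1 of the 10 rises, RNU1-3, passed (0.649% against 2.35% of all rows), and SNORD13 was lower (0.649% against 1.24%). At 96 h in PANC1, 4 of 152 were higher (2.63% against 3.15%) and 1 was lower (0.658% against 1.33%).

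Set directly against C646 at 96 h, most small RNA rows were below 0 with ICG-001 in both lines. In PANC1 the share called lower was near that of all rows. In HCT116, 16 of 150 rows were lower (10.7% against 3.64% of all rows) and 0 were higher, where 3.59% of all rows were. In PANC1, 6 of 155 were lower (3.87% against 3.96%) and 0 were higher, where 3.79% of all rows were. The medians were -0.14 and -0.15, and 80.0% and 79.4% of the small RNA rows lay below 0, against 50.6% and 50.1% of all rows. At 12 h, ICG-001 over C646 gave 11 of 158 rows higher (6.96% against 3.86%) and 4 lower (2.53% against 3.16%) in HCT116, and 1 of 156 higher (0.641% against 1.79%) and 4 lower (2.56% against 1.06%) in PANC1.

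Between the DMSO columns of a line, 96 over 12 h, the rows were steady in HCT116 and not in PANC1. In HCT116, 2 of 157 were higher (1.27% against 1.72%), SNORA8 and SNORD80, and 0 were lower, where 1.73% of all rows were. In PANC1, 8 of 144 were higher (5.56% against 1.08%) and 1, RNU4ATAC, was lower (0.694% against 0.367%). The 8 rows were the 5 U1 copies, SNORD3D, SNORA12 and SNORD13.

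**Figure D1:**
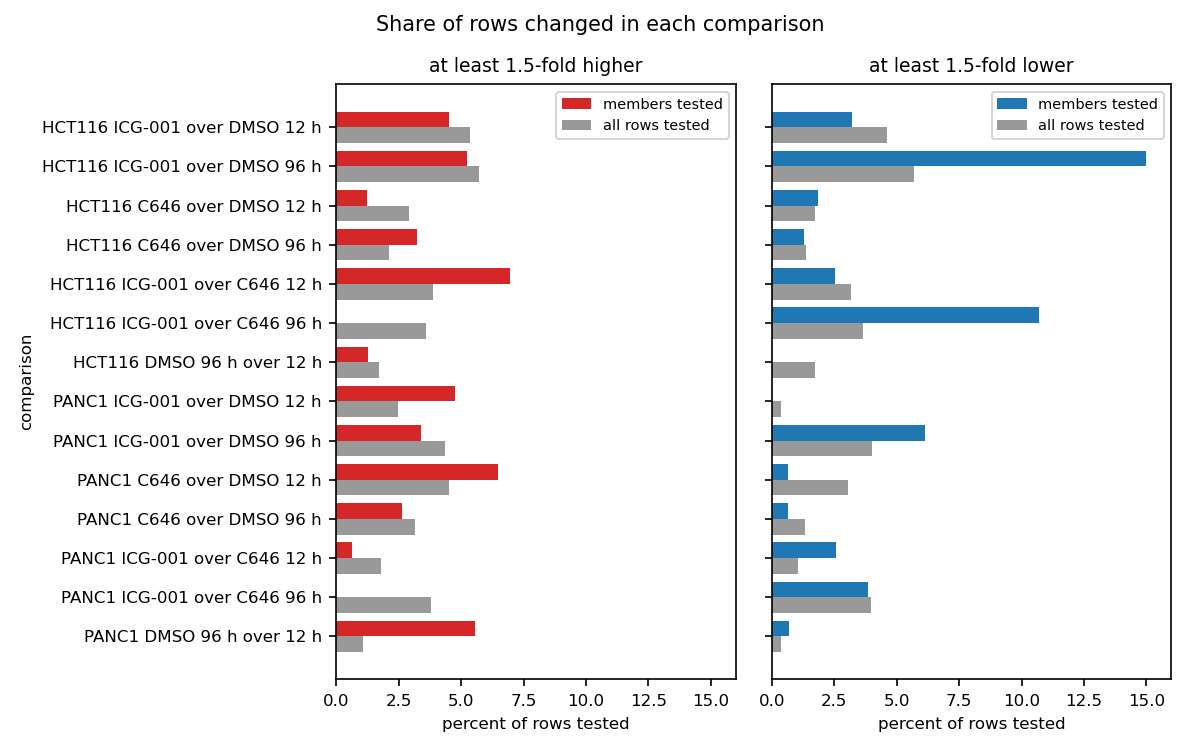
Share of tested rows at least 1.5-fold higher (left) or lower (right) in each of the 14 comparisons, in percent, for the small RNA rows (red or blue bars) and for all rows (grey bars). The longest bar is the 15.0% of small RNA rows that were lower with ICG-001 at 96 h in HCT116, against 5.68% of all rows.

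**Figure D2:**
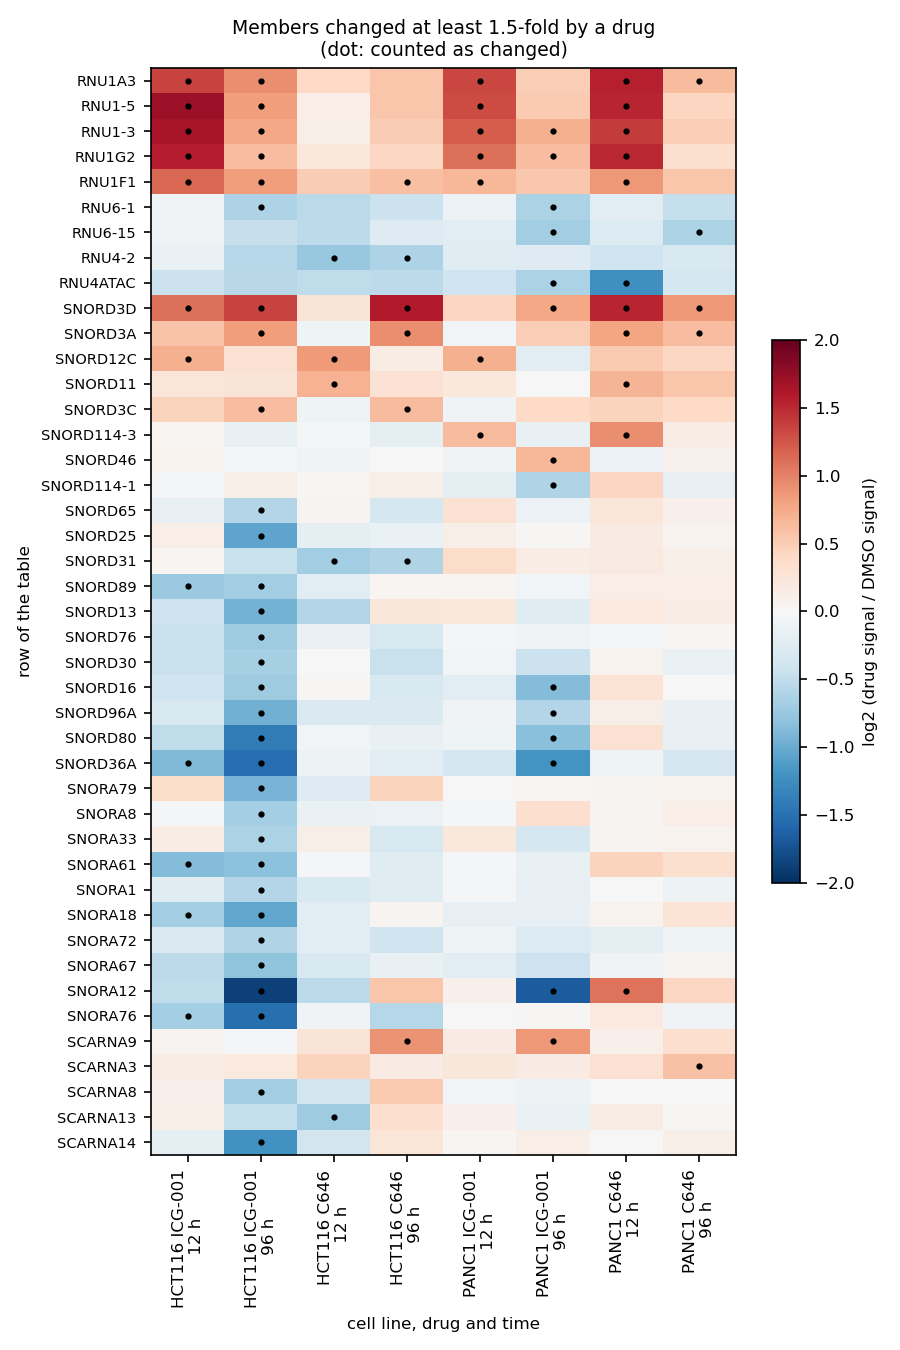
Log2 ratio of drug to DMSO signal (colour, red higher and blue lower) for the 43 rows changed in at least 1 of the 8 drug comparisons, by class, with a dot where the row was counted as changed. The U1 and U3 rows are red in most columns, and the blue rows gather in the HCT116 ICG-001 96 h column.

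U1 snRNA, which recognises the 5' splice site, was the RNA with the largest rise. RNU1-3 read 334.1 and 309.9 with DMSO at 12 and 96 h in HCT116, 1050.1 and 527.1 under ICG-001, and 363.5 and 440.7 under C646. RNU1A3 read 391.3 and 333.0, 997.7 and 632.3, and 517.9 and 489.5 in the same order. Both ICG-001 columns lay above every DMSO and C646 column for these rows. With ICG-001 at 12 h the 5 U1 rows were 2.21-fold (RNU1F1) to 3.26-fold (RNU1-5) higher than DMSO, and at 96 h 1.53-fold (RNU1G2) to 1.90-fold (RNU1A3). With C646 in HCT116, only RNU1F1 at 96 h passed 1.5-fold, at 1.51-fold.

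In PANC1 the U1 rises depended on the control column. RNU1-3 read 132.3 and 229.0 with DMSO, 306.1 and 375.7 under ICG-001, and 346.9 and 320.4 under C646. At 12 h all 5 U1 rows passed 1.5-fold with either drug, among them RNU1A3 at 2.53-fold with ICG-001 and 2.95-fold with C646, and RNU1-3 at least 2.15-fold and at least 2.44-fold. Against DMSO 96 h these columns gave 1.05-fold to 1.34-fold with ICG-001, none past 1.5-fold, and 1.21-fold to 1.52-fold with C646, where only RNU1-3 passed. At 96 h, with its own control, ICG-001 raised RNU1-3 by 1.64-fold and RNU1G2 by 1.54-fold, and C646 raised RNU1A3 by 1.54-fold.

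Some other RNAs without a poly(A) tail were higher in the same columns as U1, and some were lower. The 28S ribosomal RNA row (RNA28SN5, named LOC100008589 in the table) read 398.7 and 495.6 with DMSO in HCT116, 1732.8 and 1180.2 under ICG-001, and 623.1 and 831.2 under C646. RN7SK, the 7SK RNA that holds the elongation factor P-TEFb inactive, read 433.9 and 325.2, 972.5 and 799.6, and 357.5 and 380.2. Of 12 tested rows of ribosomal, 7SK, SRP, Y, vault and RNase RNAs, 4 were higher and 0 lower with ICG-001 at 12 h in HCT116, and 4 of 11 were higher and 1 lower at 96 h. Of all rows, 5.37% and 5.7% were higher at these times, and 4.63% and 5.68% lower. In PANC1 the 28S row read 133.7 and 173.0 with DMSO, 437.6 and 2841.2 under ICG-001, and 509.5 and 1417.9 under C646. In that line the same list went both ways. Of 13 tested rows, 2 were higher and 1 lower with ICG-001 at 12 h, and 2 were higher and 2 lower with C646. These 12 h counts rest on the DMSO 12 h column that stood apart and were not taken against DMSO 96 h. At 96 h, 4 of 12 were higher and 3 lower with ICG-001, and 3 were higher and 2 lower with C646. Of all rows in these PANC1 comparisons, 2.46% to 4.51% were higher and 0.38% to 4% lower. The Y RNA row RNY1 fell 2.11-fold under ICG-001 and 1.77-fold under C646 at 96 h, and RPPH1, the RNA of RNase P, fell 1.98-fold under ICG-001. RNY4 fell 2.85-fold under C646 at 12 h and 1.90-fold at 96 h. It read 645.4 and 427.3 with DMSO, 386.0 and 581.2 under ICG-001, and 226.7 and 224.4 under C646. The part of ribosomal RNA in the U1 result was not tested.

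U3 snoRNA, needed for the early cleavages of the ribosomal RNA precursor, has 3 detected rows, SNORD3A, SNORD3C and SNORD3D. SNORD3D read 445.5 and 405.7 with DMSO in HCT116, 952.2 and 1031.9 under ICG-001, and 530.2 and 1214.6 under C646. At 96 h it was 2.54-fold higher with ICG-001 and 2.99-fold higher with C646, and SNORD3A and SNORD3C passed 1.5-fold with each drug as well. At 12 h only SNORD3D with ICG-001 passed, at 2.14-fold, and SNORD3A and SNORD3C were at 1.49-fold and 1.36-fold.

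In PANC1, SNORD3D read 204.9 and 445.8 with DMSO, 275.7 and 762.6 under ICG-001, and 589.7 and 813.1 under C646. It was 1.71-fold higher with ICG-001 and 1.82-fold higher with C646 at 96 h. The 2.88-fold rise with C646 at 12 h shrank to 1.32-fold against DMSO 96 h, and against that column SNORD3D was 1.62-fold lower with ICG-001 at 12 h. SNORD13 (U13), an RNA that guides acetylation of 18S ribosomal RNA and also has its own promoter, was not raised 1.5-fold by either drug. It read 456.8 and 530.1 with DMSO in HCT116, 342.1 and 274.8 under ICG-001, and 305.4 and 620.1 under C646, which is 1.93-fold lower with ICG-001 at 96 h. In PANC1 it read 197.9 and 385.1, 228.9 and 324.3, and 226.0 and 428.6. Like SNORD3D it was higher at 96 than at 12 h with DMSO there, by 1.95-fold, and neither drug moved it by 1.5-fold from the DMSO column of its time.

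**Figure D3:**
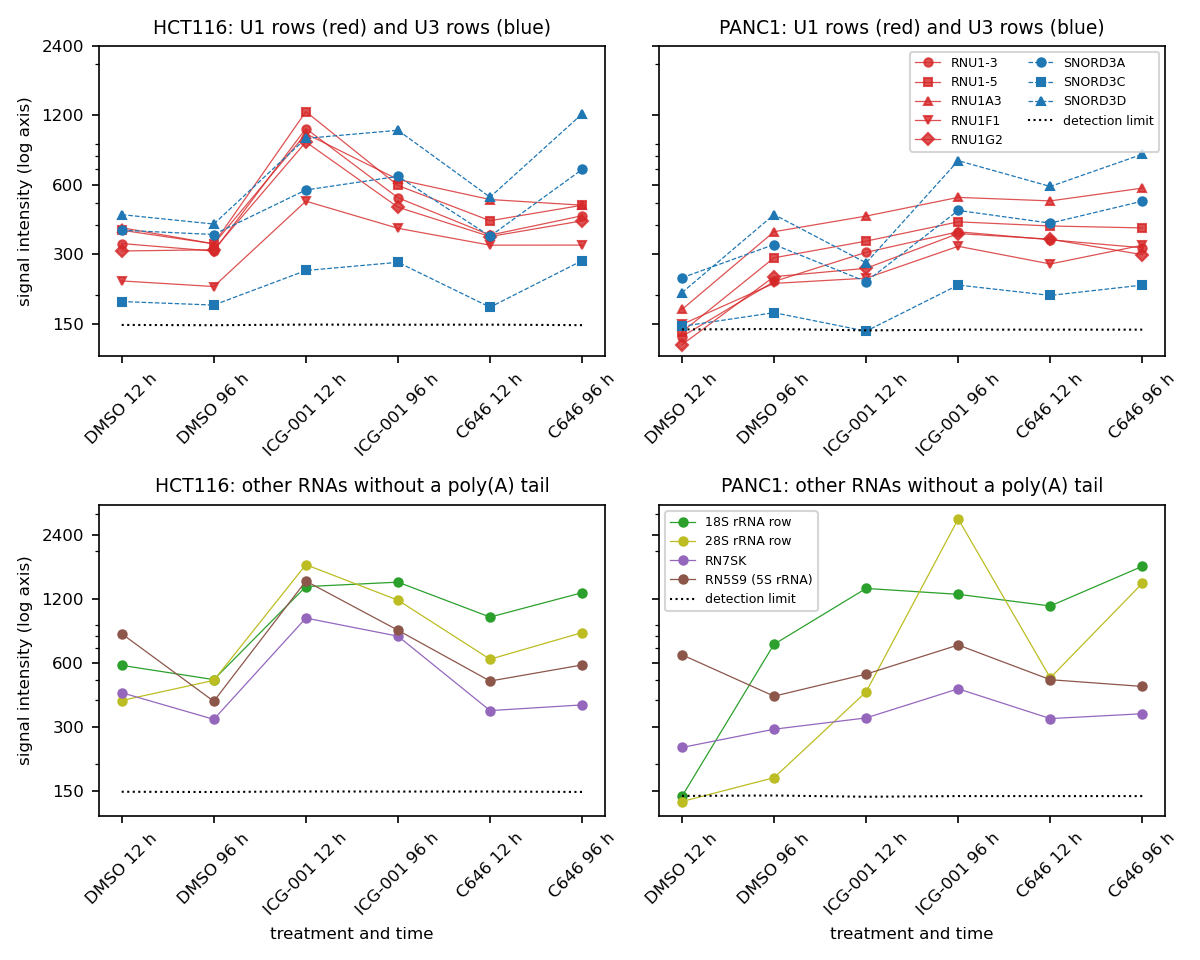
Signal intensity (log axis) by treatment and time in HCT116 (left) and PANC1 (right), for the 5 U1 rows and 3 U3 rows (top) and for ribosomal and 7SK RNA rows (bottom), with a thin line joining the values of a row and a dotted line at the detection limit. In HCT116 the U1 and 28S rows peak with ICG-001 at 12 h (RNU1-3 at 1050.1, 28S at 1732.8), and in PANC1 the U1 rows are lowest with DMSO at 12 h.

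The other snRNAs went down or did not move. RNU6-1 and RNU6-15 read U6, the RNA at the catalytic core of the spliceosome, and RNU6-15 is annotated as a pseudogene copy. RNU6-1 read 2656.7 and 2562.7 with DMSO in HCT116, 2538.0 and 1664.1 under ICG-001, and 1833.3 and 1896.8 under C646. In PANC1 it read 2994.0 and 3298.6, 2767.1 and 2122.5, and 2563.4 and 2359.2. With ICG-001 at 96 h RNU6-1 fell 1.54-fold in HCT116 and 1.55-fold in PANC1. RNU6-15 passed 1.5-fold in PANC1, from 3661.7 to 2268.8, but not in HCT116, from 2296.8 to 1663.8. With C646 at 96 h in PANC1 RNU6-15 was 1.55-fold lower and RNU6-1 did not pass. All drug columns of RNU6-1 lay below the DMSO columns of their line. For RNU6-15 this failed in HCT116, at 2678.6 with ICG-001 at 12 h against 2296.8 with DMSO at 96 h.

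RNU4-2, a gene of U4, the partner that keeps U6 inactive before splicing, read 361.0 and 311.2 with DMSO in HCT116, 330.7 and 209.9 under ICG-001, and 212.9 and 202.6 under C646. It was 1.70-fold and 1.54-fold lower with C646 at 12 and 96 h, and its PANC1 signals of 189.6 to 251.9 gave no change. RNU4ATAC, the U4 counterpart of the minor spliceosome, read 450.2 and 218.4 with DMSO in PANC1, 341.9 and 141.2 under ICG-001, and 191.5 and 170.3 under C646. Its 2.35-fold fall with C646 at 12 h was 1.14-fold against DMSO 96 h, and its fall with ICG-001 at 96 h was at least 1.54-fold. RNU11 and RNU6ATAC of the minor spliceosome, RNU4-1, RNU5A, RNU86 (now SNORD139), RNU105A and RNU105C were above the limit in 1 to 12 columns and changed in none of the 8 drug comparisons. RNU105A is now named SNORA73B and reads with SNORA73A and SNORA73B, which encode U17, a snoRNA of 18S processing. The signals of these 3 rows stayed between 190.8 and 271.3 in all columns.

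SNORA12, an H/ACA RNA in an intron of CWF19L1, fell furthest. It read 2703.1 and 2740.4 with DMSO in HCT116, 1896.9 and 752.5 under ICG-001, and 1862.9 and 4028.9 under C646. In PANC1 it read 289.0 and 593.7, 308.5 and 186.6, and 613.0 and 790.0. It fell 3.64-fold (HCT116) and 3.18-fold (PANC1) with ICG-001 at 96 h, and the ICG-001 column was 5.35-fold and 4.23-fold below that of C646. Its 2.12-fold rise with C646 at 12 h in PANC1 was 1.03-fold against DMSO 96 h. The CWF19L1 row moved little beside it, from 1355.0 with DMSO to 1594.8 with ICG-001 at 96 h in HCT116 and from 1607.0 to 1317.5 in PANC1.

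Besides SNORA12 and RNU6-1, 4 box C/D rows were lower with ICG-001 at 96 h in both lines, namely SNORD36A, SNORD80, SNORD16 and SNORD96A. The share of all rows that were lower in both lines was not counted. SNORD36A, in the ribosomal protein gene RPL7A, read 1049.1 and 1035.9 with DMSO in HCT116, 570.3 and 359.6 under ICG-001, and 978.7 and 890.2 under C646, and in PANC1 667.6 and 695.9, 523.6 and 305.4, and 630.0 and 549.5. This was 1.84-fold lower at 12 h and 2.88-fold lower at 96 h in HCT116, and 2.28-fold lower at 96 h in PANC1. SNORD80, in GAS5, was 2.63-fold lower in HCT116, from 1120.2 to 425.8, and 1.79-fold lower in PANC1, from 592.2 to 330.9. SNORD16, in RPL4, and SNORD96A, in RACK1 (GNB2L1 in the table), were 1.64-fold and 1.95-fold lower in HCT116 and 1.83-fold and 1.51-fold lower in PANC1. None of the 4 passed 1.5-fold with C646 in either line.

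In HCT116, 5 rows were lower with ICG-001 at both times. They were SNORA18, SNORA61, SNORA76 (now SNORA50C), SNORD36A and SNORD89. The share of all rows that were lower at both times was not counted for either drug. SNORA61, in SNHG12, read 2382.8 and 2420.9 with DMSO, 1301.8 and 1378.3 under ICG-001, and 2329.3 and 2055.0 under C646, or 1.83-fold and 1.76-fold lower with ICG-001. SNORA76 read 501.7 and 602.5, 313.8 and 211.2, and 477.9 and 407.6, or 1.60-fold and 2.85-fold lower. For both, the ICG-001 columns were the lowest of the line. Neither passed 1.5-fold in PANC1, where SNORA61 read 919.6 to 1418.3 and SNORA76 171.5 to 205.4.

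SNORA18, in TAF1D, read 925.0 and 1144.6 with DMSO in HCT116, 576.1 and 555.5 under ICG-001, and 792.8 and 1190.7 under C646, a fall of 1.61-fold and 2.06-fold with ICG-001. SNORD89, a box C/D RNA in RNF149, read 327.9 and 324.7, 196.1 and 200.2, and 280.4 and 334.5, a fall of 1.67-fold and 1.62-fold. The 12 h and 96 h values under ICG-001 were close to each other for these rows, as for SNORA61, whereas SNORD36A and SNORA76 were lower at 96 h than at 12 h. In PANC1, SNORA18 stayed at 779.8 to 1060.4 and SNORD89 at 196.1 to 224.9, and neither passed 1.5-fold in a drug comparison.

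With C646, the rows lower at both times in HCT116 were RNU4-2 and SNORD31. SNORD31, in SNHG1, read 723.9 and 819.9 with DMSO, 746.2 and 604.4 under ICG-001, and 445.6 and 538.0 under C646. That is 1.62-fold lower at 12 h and 1.52-fold lower at 96 h, while the SNHG1 row itself had log2 ratios of 0.01 and -0.02. In PANC1 SNORD31 lay between 331.3 and 428.1 and did not pass 1.5-fold.

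Among the remaining HCT116 falls at 96 h, SNORD25 in SNHG1 was 2.07-fold lower, from 882.7 to 426.8, although it read 1134.6 with ICG-001 at 12 h. SNORA67 in EIF4A1 was 1.75-fold lower, SNORD76 in GAS5 1.63-fold, SNORA8 in TAF1D 1.60-fold, SNORD30 in SNHG1 1.59-fold, SNORA33 in RPS12 1.56-fold and SNORD65 in SNHG29 1.51-fold. SNORA72 ended below the limit, at 143.9, so its fall was at least 1.47-fold.

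**Figure D4:**
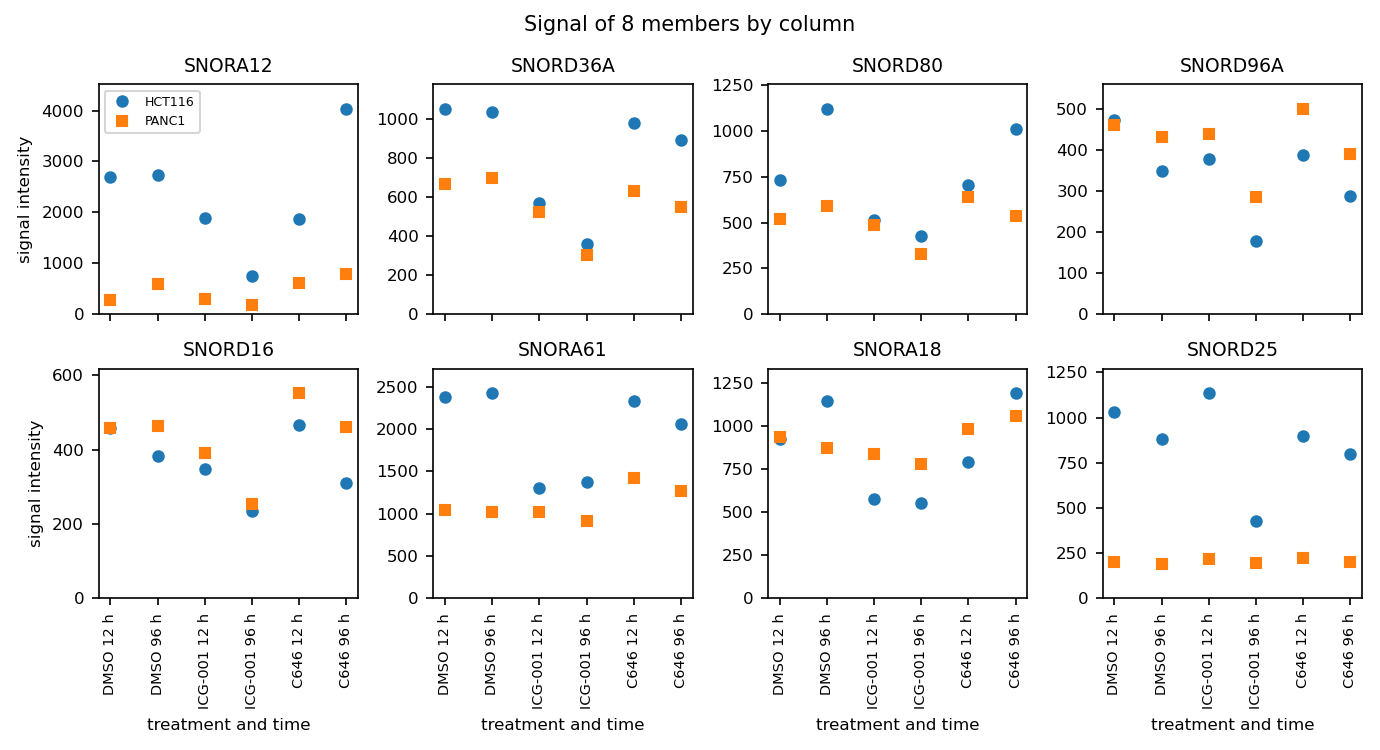
Signal intensity (linear axis from 0) of 8 snoRNA rows by treatment and time, with blue circles for HCT116 and orange squares for PANC1. The ICG-001 96 h value is the lowest of its line for SNORA12 (752.5 and 186.6), SNORD36A (359.6 and 305.4) and SNORD80 (425.8 and 330.9), while SNORA61 is low with ICG-001 at both times in HCT116 alone.

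Some rows rose. SNORD12C, a box C/D RNA in ZFAS1, was 1.64-fold higher with ICG-001 and 1.80-fold higher with C646 at 12 h in HCT116, from 207.8 to 340.6 and 373.4. In PANC1 at 12 h it was 1.63-fold higher with ICG-001 but 1.23-fold against DMSO 96 h. SNORD11, in NOP58, was 1.61-fold higher with C646 at 12 h in HCT116, from 165.5 to 266.6, and 1.60-fold higher in PANC1, from 152.8 to 245.2 (1.43-fold against DMSO 96 h). At 12 h in PANC1, SNORD114-3 rose 1.56-fold under ICG-001 and 1.90-fold under C646 and did not pass against DMSO 96 h.

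The scaRNA rows differed between the drugs at 96 h in HCT116. SCARNA9, which guides modification of U2, read 343.2 and 369.8 with DMSO, 358.1 and 362.8 under ICG-001, and 411.4 and 690.4 under C646, or 1.87-fold higher with C646 at 96 h. In PANC1 it was the ICG-001 column that was high, at 342.0 against 188.3 with DMSO and 237.4 with C646 at 96 h, a rise of 1.82-fold over DMSO. SCARNA14 read 292.4 and 345.9 with DMSO in HCT116, 259.5 and 150.1 under ICG-001, and 226.5 and 407.6 under C646. SCARNA14 and SCARNA8 were 2.30-fold and 1.62-fold lower with ICG-001 at 96 h.

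With ICG-001 over C646 at 96 h in HCT116, 5 of 13 tested SCARNA rows were lower and 0 higher, with a median log2 ratio of -0.45 against -0.14 for all small RNA rows. Of all rows of the array, 3.64% were lower and 3.59% higher. The 5 SCARNA rows were SCARNA8, SCARNA9, SCARNA13, SCARNA14 and SCARNA16. SCARNA13 was also 1.64-fold lower with C646 at 12 h, from 763.7 to 465.2. SCARNA3 was at least 1.38-fold higher with C646 at 96 h in PANC1. The other detected SCARNA rows were SCARNA4, SCARNA7, SCARNA9L, SCARNA10, SCARNA11, SCARNA12, SCARNA18, SCARNA21, SCARNA22, SCARNA23 and SCARNA27, and none of them changed in the 8 drug comparisons.

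Of the rows other than RNU rows, 262 lay within the span of exactly 1 longer gene that has a row of its own, and that row was taken as the host. Spans were matched without strand, since the gene table gives none. Another 20 lay in a gene without a row, 11 in several genes with rows, and 7 in no other gene, which were SNORD3A, SNORD3C, SNORD3D, SNORD13, SNORD32B, SNORA76 and SCARNA2.

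Where a small RNA row changed with a drug, its host row mostly did not pass 1.5-fold. With ICG-001 at 96 h in HCT116, 17 of 106 rows with a detected host row changed, all of them lower, and the host row was also lower by 1.5-fold for 3, SNORA1, SNORA8 and SNORA18, all in TAF1D. The hosts of the other 14 did not pass 1.5-fold. The median log2 ratio was -0.20 for the small RNA rows and -0.02 for the 72 host rows. Residents of the 9 host rows that fell had a median of -0.32, those of 60 unchanged hosts -0.20 and of 3 that rose -0.12. In PANC1 7 of 106 changed, 5 of them lower, and none of the host rows of these 7 passed. Of the 67 PANC1 host rows, 3 were higher and 3 lower, and no resident of those changed. Across pairs r was 0.07 in HCT116 and 0.17 in PANC1, as a description over pairs that share hosts and columns.

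At 12 h in HCT116 most host rows did not change, with 7 higher and 2 lower beside 67 that did not pass. A list of non-coding host genes moved more. The rows of these genes, whose spliced RNAs encode no known protein while their introns carry snoRNAs, were mostly higher with ICG-001. Of 20 tested, 12 were higher and 1 lower (60.0% and 5.0%, against 5.37% and 4.63% of all rows), with a median log2 ratio of 0.87. SNHG1 read 3681.9 and 3265.3 with DMSO, 8226.6 and 3406.1 under ICG-001, and 3699.6 and 3215.7 under C646, a 2.23-fold rise at 12 h. SNHG32 (C6orf48 in the table) rose 2.95-fold and EPB41L4A-AS1, with rows NCRNA00219 and TIGA1, 3.46-fold and 3.02-fold. Of the 26 tested small RNA rows held by non-coding genes, 1 was higher and 1 lower, with a median of 0.00. Over the 7 host rows of any kind that rose, 1 of 14 resident rows changed, SNORD12C, and their median was 0.07.

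Within SNHG1 the log2 ratios with ICG-001 at 12 h were 0.30 for SNORD22, 0.14 for SNORD25, 0.04 for SNORD31 and -0.45 for SNORD30, where the SNHG1 row was at 1.16. TAF1D, a gene of the polymerase I transcription machinery, showed the same spread at 96 h. Its row fell from 716.1 to 350.0 in HCT116, a log2 ratio of -1.03, and its resident rows ranged from -1.04 for SNORA18 and -0.68 for SNORA8 to -0.23 for SNORA25. In RPL7A, SNORD36A was at -1.53 and SNORD36C at -0.47, with the host at -0.29. In GAS5, SNORD80 was at -1.40 and SNORD76 at -0.71, while SNORD74 fell under the limit and gave no measured ratio, and the GAS5 row was not above the limit in any column. The ratios of small RNA rows of the same gene thus differed by more than 1.5-fold in these hosts. In others they lay closer with ICG-001 at 96 h in HCT116. NOP56 had SNORD56 at -0.198, SNORD57 at -0.006 and SNORD110 at 0.001, and RPL27A had SNORA3 at -0.275 and SNORA45 at -0.241. How many hosts showed each was not counted. The background is left in, so a dim row shows a smaller ratio than a bright one for the same change. How much of the spread comes from unequal brightness was not tested.

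**Figure D5:**
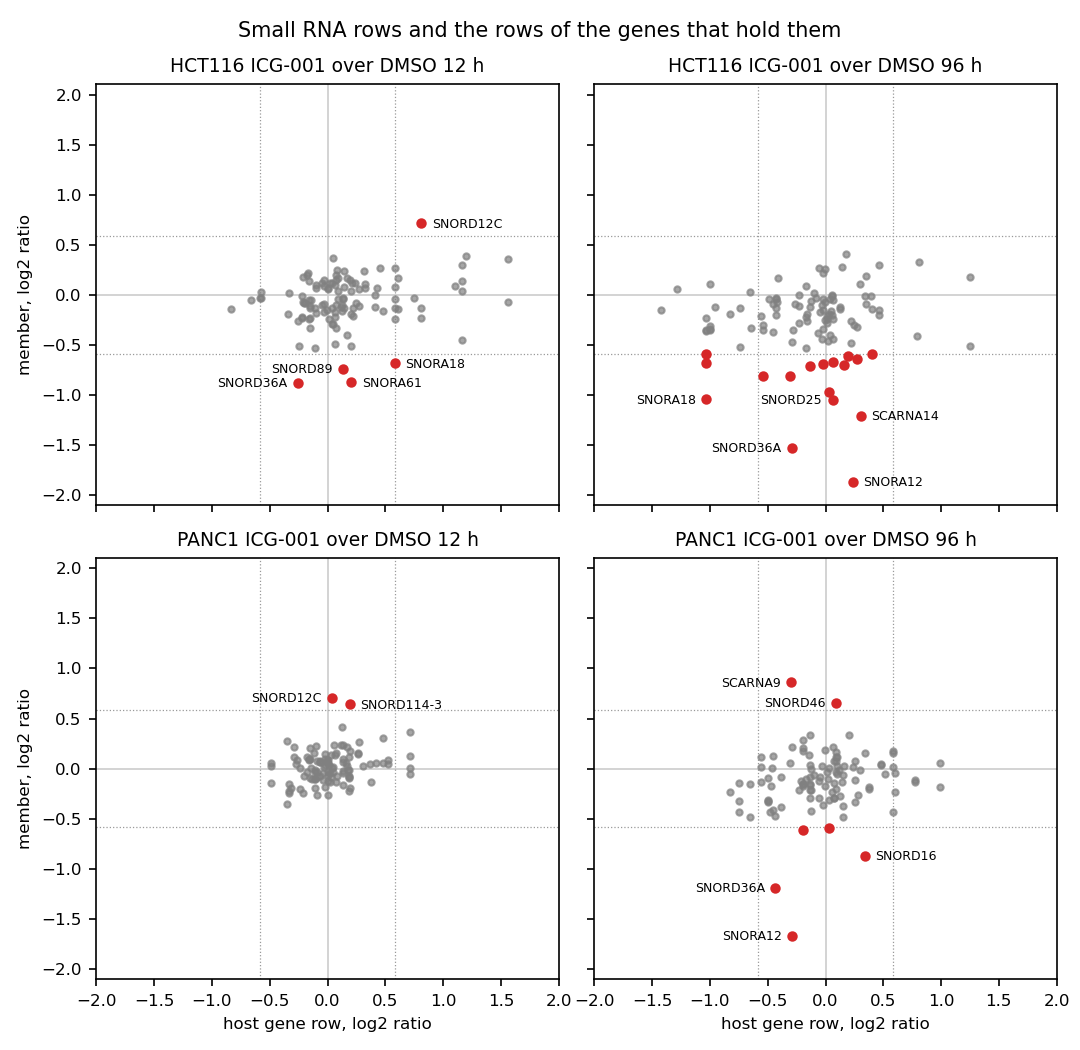
Log2 ratio of ICG-001 to DMSO for small RNA rows (vertical axis) against that of the row of the gene that holds each (horizontal axis), at 12 h (left) and 96 h (right) in HCT116 (top) and PANC1 (bottom), with dotted lines at 1.5-fold and red points for changed small RNA rows. In HCT116 at 12 h the points spread to the right, to a host ratio of 1.56, with the small RNAs near 0, and at 96 h the 17 red points lie below the line, 3 of them with a host at -1.03.

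Many snoRNA host genes belong to the 5' terminal oligopyrimidine class, in which transcription starts at a C followed by a run of pyrimidines, a sequence that ties translation and decay of the spliced RNA to growth signals. Annotated starts of 84 host genes with a detected resident were in the promoter table, and 30 of them (35.7%) begin with a C and at least 4 more pyrimidines, on the gene's own strand, against 5.14% of 27305 genes. The starts of 7 hosts are shown because their residents carry the results above, as 35 bases before and 25 bases from the RefSeq start (GRCh38.p14), 5' to 3' on the gene's strand, with the tract in capitals. They lie at chr1:28581849-28581908 (SNHG12, minus strand), chr11:62855861-62855920 (SNHG1, minus), chr11:93741471-93741530 (TAF1D, minus), chr9:133348183-133348242 (RPL7A, plus), chr5:181243882-181243941 (RACK1, minus), chr10:100267614-100267673 (CWF19L1, minus) and chr1:173869021-173869080 (GAS5, minus), each around the annotated first base of exon 1.
SNHG12: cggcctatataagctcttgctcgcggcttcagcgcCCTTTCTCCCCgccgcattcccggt
SNHG1: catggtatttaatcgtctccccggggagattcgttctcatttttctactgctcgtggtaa
TAF1D: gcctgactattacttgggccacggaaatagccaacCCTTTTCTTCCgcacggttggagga
RPL7A: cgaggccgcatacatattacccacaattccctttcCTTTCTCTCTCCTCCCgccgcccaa
RACK1: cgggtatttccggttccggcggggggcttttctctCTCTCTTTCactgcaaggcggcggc
CWF19L1: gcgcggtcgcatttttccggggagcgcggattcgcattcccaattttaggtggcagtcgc
GAS5: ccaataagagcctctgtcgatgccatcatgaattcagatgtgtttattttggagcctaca

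The tract runs 11 bases in SNHG12 and TAF1D, 16 in RPL7A and 9 in RACK1, and the letters of the other 3 starts hold none at the annotated base. Only this annotated start was read, so a tract at another start of these genes, GAS5 among them, would be missed. By the annotated starts, rows that were lower with ICG-001 at 96 h in HCT116 came from hosts of both kinds. Of 48 tested rows in hosts with a tract 7 were lower, with a median log2 ratio of -0.30, and of 52 in hosts without one 12 were lower, with a median of -0.18. In PANC1 the counts were 2 of 46 and 3 of 47, with medians of -0.17 and -0.08. Of all rows, 5.68% were lower in HCT116 and 4% in PANC1. The row with the largest fall, SNORA12, has a host without a tract at its annotated start, and the next, SNORD36A, a host that has it.

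Grouped by kind of host, the 96 h falls with ICG-001 in HCT116 were 4 of 37 tested rows in ribosomal protein genes, 10 of 56 in other protein-coding genes and 6 of 26 in non-coding genes, with medians of -0.26, -0.17 and -0.21. With C646 at 96 h the same classes gave 0, 0 and 1 lower row. Of all rows, 5.68% were lower with ICG-001 and 1.35% with C646.

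The core proteins of the snoRNAs did not pass 1.5-fold. The box C/D core list (FBL, NOP56, NOP58 and SNU13) and the 7 rows of the box H/ACA list (among them DKC1, the pseudouridine synthase) had no changed row in any of the 8 drug comparisons. Of 28 tested rows of Sm and snRNP proteins, which coat the snRNAs, ICG-001 lowered 4 in HCT116 at 12 h and 2 at 96 h, and 3 of 29 in PANC1 at 96 h. These are 14.3%, 7.14% and 10.3%, where 4.63%, 5.68% and 4% of all rows were lower. PRPF31, a U4/U6 snRNP protein, was 1.94-fold lower at 12 h and 1.58-fold at 96 h in HCT116, and 1.87-fold lower at 96 h in PANC1. EFTUD2, the GTPase of the U5 snRNP, fell 1.75-fold at 12 h and 1.77-fold at 96 h in HCT116. In PANC1 at 96 h EFTUD2 fell 1.99-fold and PRPF3 2.05-fold. EFTUD2 was also 1.75-fold lower with C646 at 12 h in PANC1, though it did not pass against DMSO 96 h.

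Among 12 rows of U6 and LSm proteins, LSM3 was 1.98-fold lower with ICG-001 at 12 h and 1.54-fold at 96 h in HCT116, and LSM2 at 12 h (1.57-fold) and LSM6 at 96 h (1.56-fold) were lower too. These belong to the ring that binds the U6 tail. None of the 12 passed 1.5-fold with ICG-001 in PANC1. Their median log2 ratio with ICG-001 at 96 h was -0.26 in PANC1 and -0.18 in HCT116, where those of all rows were -0.005 and 0.001. Any link of these rows with the U6 signals was not tested. Of 23 snRNA transcription genes, SNAPC1, a subunit of the complex that binds snRNA promoters, was higher with C646, at 2.04-fold at 12 h in HCT116 and 2.08-fold and 1.99-fold at 12 and 96 h in PANC1, and with ICG-001 it was 1.51-fold higher at 12 h in PANC1. Against DMSO 96 h the PANC1 rises at 12 h were 1.60-fold with C646 and 1.16-fold with ICG-001. With ICG-001 at 96 h in HCT116, the Integrator subunits INTS8 and INTS13 (C12orf11 in the table) were 1.64-fold and 1.80-fold lower.

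In the lists of Cajal body and SMN proteins and of 3' end processing, 0 or 1 row passed 1.5-fold in each of the 8 drug comparisons. TGS1 (NCOA6IP in the table), which trimethylates the cap of snRNAs and U3, was 1.53-fold higher with ICG-001 at 12 h in HCT116, and the exosome subunits EXOSC2 and EXOSC8 were 1.52-fold higher at 12 h and 1.76-fold higher at 96 h. EXOSC2 was 1.53-fold higher with C646 at 12 h in that line too. The exosome cofactor MPHOSPH6 was 1.60-fold lower with ICG-001 at 96 h in PANC1.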

How the data were processed

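RNA of HCT116 and PANC1 cells was labelled and hybridised to Illumina HumanHT-12 BeadChips. What the authors deposited is linear signal intensity, 1 row per gene name, quantile normalized in GenomeStudio (version not given in the sources used here), with no background subtracted and with replicate arrays averaged, so no spread could be computed and the number of arrays limits precision. Groups were taken from the sample labels.

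Ratios were taken as differences of log2 signal. Each column's limit was set 2.33 SD above the peak of its log2 values, with the SD from values under that peak. Of the 320 names, 300 are current RefSeq symbols, 19 older symbols and 1 an older symbol of several genes. Hosts were matched by gene span without strand. The rows, gene lists and rules were chosen with earlier results of these data known. Named were the 3 largest rises and falls of each comparison, rows changed the same way at both times, every detected SCARNA and RNU row, their hosts, up to 4 changed genes of a list, and other detected RNAs without a poly(A) tail; the further rows named for a change or a line difference were chosen after their values were seen. Alternatives are given in the closing section. The calls were tested on simulated data. Python 3.11.15 (numpy 2.4.6, pandas 2.3.3, scipy 1.17.1, matplotlib 3.10.9) and limma 3.58.1 in R 4.3.3 were used. One row that the naming rule took is not reported here.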

Additional observations from a re-analysis of the deposited data

How the results depend on the processing

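No row counted as changed in the 14 comparisons had its direction reversed under the alternatives run, but most single-row results moved with normexp. There 137 of 145 single-row results moved and 8 stayed the same, so the fold changes given above depend on the background treatment. With DMSO 96 h as the control 18 moved. For ICG-001 at 12 h in PANC1, that control gave SNORD3D, SNORA12 and SNORD13 as lower and RNU4ATAC as higher. For C646 at 12 h it gave SNORD13 as lower. The ratios of these rows to DMSO 12 h had the opposite sign and did not pass 1.5-fold. All 145 stayed the same with centred ratios, a limit at 5 SD or no filter on dim rows. The counts of changed rows are given below for HCT116 and then PANC1, each in the order ICG-001 over DMSO at 12 and 96 h, C646 over DMSO at 12 and 96 h, ICG-001 over C646 at 12 and 96 h, and DMSO at 96 over 12 h. A threshold of 1.2-fold gave 39, 73, 27, 41, 56, 39 and 17, and then 21, 50, 37, 30, 22, 49 and 17. Normexp background correction with an offset of 16 and quantile normalization within a line gave 32, 67, 19, 23, 43, 32 and 6, and then 12, 41, 28, 26, 15, 34 and 15. Normexp stretches ratios of dim rows. With ICG-001 at 96 h in HCT116, 60 rows were lower and 13 higher at 1.2-fold (39.2% and 8.50%, against 19.2% and 18.5% of all rows), and 55 lower and 12 higher with normexp (35.9% and 7.84%, against 12.0% and 11.5%). In PANC1 they were 37 lower and 13 higher at 1.2-fold (25.2% and 8.84%, against 16.9% and 15.9%), and 28 and 13 with normexp (19.0% and 8.84%, against 8.83% and 9.28%). No filter on dim rows, a limit at 5 SD and centred ratios kept all 14 counts within 1.5 times. The median with ICG-001 at 96 h in HCT116 was -0.06 without the filter, -0.29 at 5 SD and -0.40 with normexp.

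Alternatives chosen after seeing the data were these. With the U1, U3, U6 and SNORA73 rows each counted as 1 family, 5 counts moved by over 1.5 times, to 4 for C646 over DMSO at 96 h in HCT116, and in PANC1 to 3 for ICG-001 over DMSO at 12 h, 6 and 2 for C646 over DMSO at 12 and 96 h, and 5 for DMSO at 96 over 12 h. With DMSO 96 h as the control, the PANC1 counts at 12 h were 4 for ICG-001 and 2 for C646. Each group had 1 column, so no replicate could be left out. No paired analysis was possible because each group had 1 column and no test was run.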
